A study of Mus musculus with 4 samples.

Results

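The Hox genes are transcription factor genes that lie side by side in 4 clusters of the mouse genome. They were measured here in cells that carry the label hepatocyte-like and were made from mouse embryonic stem cells. The members are the rows of the count tables whose symbol is Hox, a cluster letter from a to d and a number, which gave 39 of 78028 rows, and 39251 of those rows had a count in at least 1 library. The Hoxa cluster held 11 of the members, Hoxb 10, Hoxc 9 and Hoxd 9. All libraries belong to a single group of 4 separate cultures of the embryonic stem cell line E14TG2a, each taken through the A-HIC protocol, a hepatic-inducing cocktail that the labels call advanced. The series has no untreated, undifferentiated or hepatocyte samples of its own, so the levels below have no control, and a level says nothing of whether A-HIC changed it. The 4 cultures are called libraries 1 to 4 after their replicate numbers. Polyadenylated RNA from each culture was sequenced from both ends without strand information, and the submitters deposited unnormalized counts for each gene.

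Hox proteins bind DNA through a homeodomain and give cells their position along the head-to-tail axis of the embryo and along the limbs. Within a cluster the genes are numbered as paralog groups 1 to 13, and their order on the chromosome matches both the order in which they switch on and the order of their expression domains, from hindbrain (low numbers) to tail bud, genitalia and digits (high numbers). In pluripotent stem cells the clusters are known to be held at low levels by Polycomb proteins, and retinoic acid and Cdx proteins are known to open them.

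The label was set against marker genes of several cell types. Libraries 1 to 4 held 37.8, 40.2, 29.5 and 40.1 M counts. Levels are given as TPM, counts scaled for gene length and library size, so that genes can be compared. Summed over 10 markers each, pluripotency genes stood between 4380 and 7933 TPM, extraembryonic endoderm genes between 2812 and 9090 TPM, mesenchyme genes between 1506 and 3578 TPM and hepatocyte genes between 13.4 and 90.5 TPM in the 4 libraries. Of the hepatocyte markers 3 of 10 reached 1 TPM in every library. Ttr and Afp were the highest (14.3 ± 12.2 and 11.5 ± 12.6 TPM, SD, n = 4), while Tat and Cyp3a11 had 3 counts or fewer in every library. The markers thus go against the hepatocyte label, which is used here as a name only. They are bulk samples, in which fewer cells with a transcript and less of it per cell cannot be told apart.

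Most Hox genes were read at low levels, and each had a count in at least 1 culture. The lowest, Hoxd3, had 0, 4, 0 and 1 counts in libraries 1 to 4. It shares 62.8% of its exonic length with other annotated genes, so these counts do not show that Hoxd3 itself was active. Expressed here means that no library fell below 1 TPM, and not detected that no library had more than 3 counts. By this measure 22 of 39 Hox genes (56.4%) were expressed, 17 lay between, and 0 were not detected. Over all protein-coding genes 63.3% were expressed, and over the 156 other homeobox genes 43.6%. The median of the mean levels was 2.35 TPM over the Hox genes, against 7.53 TPM over all protein-coding genes and 1.01 TPM over the other homeobox genes. Among expressed genes the medians were 5.59 TPM for Hox genes and 26.2 TPM for protein-coding genes, and all 22 expressed Hox genes lay under that protein-coding median. Together the Hox rows took 0.00965% of all counts, and a member had between 0 and 453 counts in a library with a median of 47.5. Small differences between members were not detectable at such counts.

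**Figure D1:**
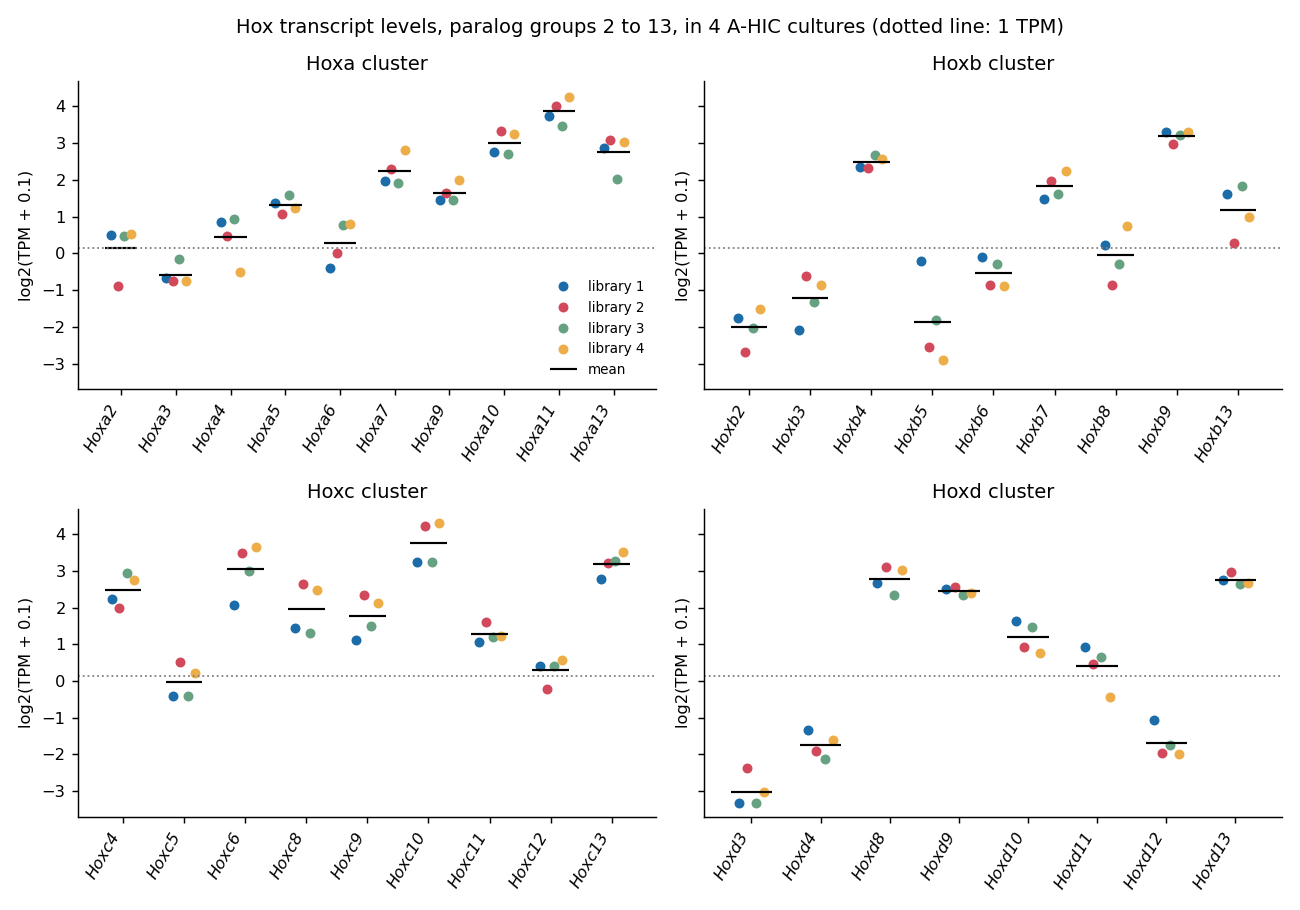
Level of the Hox genes of paralog groups 2 to 13 in each culture, as log2(TPM + 0.1), with 1 panel for each cluster and genes in paralog order; points are libraries 1 to 4, bars are means over the 4 libraries and the dotted line marks 1 TPM. Hoxa11 and Hoxc10 stand highest, Hoxd3 lowest, and the low-numbered genes of Hoxb and Hoxd lie under the line.

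Posterior genes, taken here as paralog groups 9 to 13, held the highest levels. They specify vertebrae from the thoracic region to the tail, limb segments and digits, and the urogenital tract. Of 16 posterior genes 13 were expressed, with a median mean level of 4.45 TPM over all 16.

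Hoxa11, which patterns the forearm and is needed in kidney and uterus, had 13.3, 16.0, 11.0 and 19.0 TPM in libraries 1 to 4. Its mean of 14.8 ± 3.43 TPM (SD, n = 4) was the highest of all members, at the 35.0th percentile of expressed protein-coding genes. An antisense transcript, Hoxa11os, overlaps 35.0% of its exonic length, and these unstranded libraries cannot tell reads of the pair apart. Hoxc10, a gene of lumbar spinal cord and hindlimb, had 9.42, 18.5, 9.30 and 19.7 TPM, so libraries 2 and 4 stood well above libraries 1 and 3. Hoxc13, needed for hair and nails, had 6.72, 9.15, 9.53 and 11.3 TPM. Hoxb9, a gene of the thoracic region, was steadier at 9.69, 7.79, 9.26 and 9.80 TPM. The ranges of Hoxc10, Hoxc13 and Hoxc6 overlapped that of Hoxa11, so the first place is not settled by these 4 cultures.

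Hoxa10, which is needed in the uterus and lumbar spine, had 6.68, 10.04, 6.36 and 9.38 TPM. Hoxa13, a gene of digits, hindgut and genital tubercle, had 7.19, 8.39, 4.00 and 8.11 TPM, with library 3 the lowest. Hoxd13, whose mutation fuses digits, had 6.58, 7.68, 6.18 and 6.26 TPM. The group 13 genes are the last in each cluster, and all 4 of them were expressed. Hoxb13, a gene of tail and prostate, was the lowest of them at 2.98, 1.11, 3.45 and 1.87 TPM. Hoxd9 had 5.61, 5.85, 4.93 and 5.16 TPM, the narrowest spread of the expressed members (highest over lowest library 1.19). Hoxc9, which sets thoracic motor neuron identity, varied more at 2.07, 4.98, 2.71 and 4.30 TPM.

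Hoxa9, a gene of blood stem cells, limb and thoracic spine, had 2.65, 3.01, 2.61 and 3.90 TPM. The lowest expressed posterior genes were Hoxc11 and Hoxd10. Hoxc11 had 2.01, 2.97, 2.20 and 2.23 TPM. Hoxd10, a limb and lumbar spinal cord gene, had 3.03, 1.79, 2.65 and 1.58 TPM. The posterior genes that missed 1 TPM in some library were Hoxd11 (mean 1.30 TPM), Hoxc12 (1.15 TPM) and Hoxd12 (0.222 TPM). Hoxd12 had 10, 4, 4 and 4 counts, and stood far below Hoxd13, its expressed neighbour.

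Central genes, paralog groups 4 to 8, pattern the neck and thorax, and 8 of 15 were expressed, with a median mean level of 2.40 TPM over all 15. Hoxc6, a thoracic gene, had 4.13, 11.1, 7.85 and 12.3 TPM and was the highest central member. It was lowest in library 1 and highest in library 4 (highest over lowest library 2.99). Hoxd8 had 6.31, 8.53, 4.99 and 7.97 TPM with the union of its exons as gene length. With the length of its longest principal transcript in place of that union, a choice made after seeing the data, its mean was 22.7 TPM instead of 6.95 TPM and it came first of all members, so its rank depends on the length used.

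Hoxc4 had 4.59, 3.91, 7.60 and 6.65 TPM, and Hoxb4, known for expanding blood stem cells, had 5.05, 4.87, 6.28 and 5.79 TPM. Each of these group 4 genes led the other in 2 libraries. Hoxa7 had 3.83, 4.79, 3.66 and 6.97 TPM, and 20.4% of its exonic length is shared with the noncoding transcript Hoxaas3. Hoxc8, which patterns ribs and limb motor pools, had 2.63, 6.18, 2.37 and 5.52 TPM, and as for Hoxc10 libraries 2 and 4 lay above the other libraries. Hoxb7 had 2.69, 3.82, 2.96 and 4.66 TPM. Hoxa5, needed for lung and cervical vertebrae, had 2.47, 1.99, 2.91 and 2.25 TPM. The central genes that were not called expressed ran from Hoxd4 at 0.205 TPM to Hoxa4 at 1.36 TPM. Among them Hoxb5 had 22, 2, 4 and 1 counts, so most of its reads came from library 1.

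Anterior genes, paralog groups 1 to 3, pattern the hindbrain, neural crest and pharyngeal arches, and their median mean level over all 8 was 0.470 TPM. Hoxa2, which patterns the hindbrain and the second pharyngeal arch, had 1.31, 0.443, 1.29 and 1.35 TPM, with library 2 the lowest. Hoxd1 had 1.14, 0.317, 1.09 and 1.13 TPM, again lowest in library 2. Hoxa3, needed for thymus and parathyroid, had 0.530, 0.491, 0.801 and 0.494 TPM. Neither these genes nor Hoxb1, Hoxb2, Hoxb3 and Hoxd3 reached 1 TPM in every library. Hoxb1, the group 1 gene of hindbrain rhombomere 4, had 0, 0, 4 and 8 counts. Hoxd3 had 0, 4, 0 and 1 counts, the lowest of all members, and 62.8% of its exonic length is shared with other annotated genes. Hoxb1 and Hoxd3 are close to the limit that a count of 0 allows, which at 3 counts is 0.0747 to 0.102 CPM (counts scaled for library size alone) in these libraries and covers counting error only.

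When all 39 members were ordered by mean TPM, every one of the 38 neighbouring pairs overlapped in range. In 1 of these pairs, Hoxd10 above Hoxa4, the higher gene led in all 4 libraries. Order between neighbours is thus within the spread between cultures, while some members that are not neighbours, such as Hoxa11 and Hoxb9, did not overlap.

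**Figure D2:**
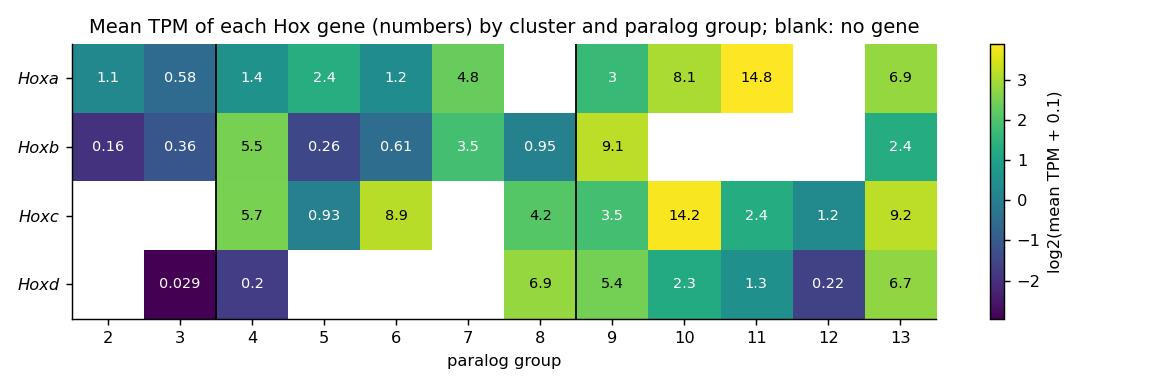
Mean TPM of each Hox gene of paralog groups 2 to 13 (printed in the cell, coloured by log2(mean TPM + 0.1)) with clusters as rows and paralog groups as columns; vertical lines divide anterior, central and posterior groups and blank cells have no gene. Hoxa11 and Hoxc10 are highest at 14.8 and 14.2 TPM, and no cell of groups 2, 3 and 12 is above 1.2 TPM.

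The summed level followed the position in the cluster, but not evenly. Posterior genes together held 81.4, 99.5, 77.1 and 104.8 TPM in libraries 1 to 4, central genes 37.7, 49.9, 44.4 and 57.7 TPM, and anterior genes 10.9, 7.07, 13.02 and 10.5 TPM. These ranges do not overlap, and the shares of all Hox TPM were 61.0% posterior, 31.8% central and 7.16% anterior. The log2 ratio of posterior to central sums was 0.94 ± 0.14 (SD, n = 4), that of posterior to anterior sums 3.15 ± 0.54, and that of central to anterior sums 2.21 ± 0.52, each above 0 in 4 of 4 libraries. An exact permutation of signs over 4 libraries cannot give a two-sided p under 0.05, so these ratios are given as descriptions. The groups also differ in their number of genes.

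By paralog group, the highest sums were those of group 13 (25.1 ± 2.16 TPM), group 10 (24.6 ± 6.83 TPM), group 9 (21.1 ± 1.65 TPM) and group 11 (18.5 ± 3.19 TPM). Group 12 broke this run with 1.37 ± 0.312 TPM, since its genes Hoxc12 and Hoxd12 were both low. Groups 2 and 3 were as low, at 1.26 ± 0.510 and 0.969 ± 0.214 TPM, against 12.7 ± 2.41 TPM for group 4. Spearman's rho between paralog number and mean TPM was 0.47 over the 39 genes, 0.58 in Hoxa, 0.72 in Hoxb, 0.12 in Hoxc and 0.42 in Hoxd, given as descriptions across genes that share libraries and chromosomes.

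**Figure D3:**
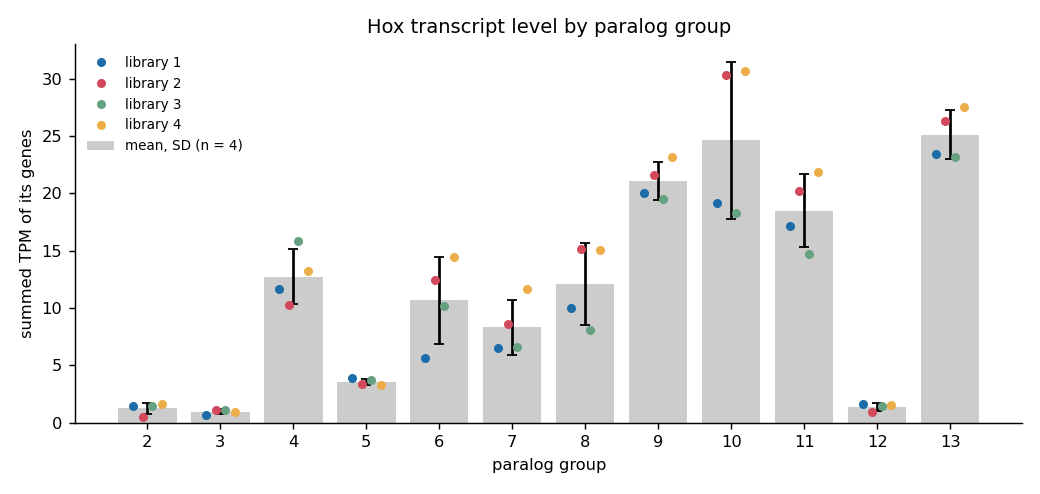
Summed TPM of the Hox genes of each of paralog groups 2 to 13; bars are means, error bars are SD over 4 libraries and points are libraries 1 to 4. Groups 9, 10, 11 and 13 stand highest, at means from 18.5 to 25.1 TPM, and groups 2, 3 and 12 lie under 2 TPM.

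Paralogs of the same group share much of their protein sequence and can stand in for each other in mouse mutants. The gene with the highest mean led its group in all 4 libraries in groups 2 (Hoxa2), 5 (Hoxa5), 6 (Hoxc6), 7 (Hoxa7), 8 (Hoxd8), 9 (Hoxb9), 10 (Hoxc10), 11 (Hoxa11) and 12 (Hoxc12). In group 3 Hoxa3 led in 3 libraries, in group 13 Hoxc13 led in 3, and in group 4 Hoxc4 led in 2. Among groups 2 to 13 a Hoxa gene had the highest mean in 5, a Hoxc gene in 5, and a Hoxb and a Hoxd gene in 1 each.

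Between clusters, Hoxa on chromosome 6 and Hoxc on chromosome 15 held more transcript than Hoxb on chromosome 11 and Hoxd on chromosome 2. Hoxa summed to 47.9, 52.4, 45.3 and 60.2 TPM in libraries 1 to 4 with 7 of 11 genes expressed. Hoxc summed to 33.4, 58.9, 43.5 and 64.6 TPM with 7 of 9 expressed, and it varied most between cultures. Hoxb summed to 23.4, 19.2, 24.2 and 25.2 TPM with 4 of 10 expressed, and Hoxd to 25.2, 25.9, 21.6 and 23.1 TPM with 4 of 9 expressed. In every library both Hoxa and Hoxc lay above both Hoxb and Hoxd, with log2 ratios from 1.02 ± 0.45 (Hoxc over Hoxd) to 1.16 ± 0.24 (Hoxa over Hoxb). The ratio of Hoxa to Hoxc was 0.08 ± 0.31 and that of Hoxd to Hoxb 0.06 ± 0.27 on the log2 scale, each above 0 in 2 of 4 libraries, so neither pair could be put in order.

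Shares of all Hox TPM were 34.7% for Hoxa, 33.3% for Hoxc, 16.3% for Hoxd and 15.7% for Hoxb. With principal transcript lengths Hoxc held 28.6% and Hoxd 27.3%, mostly through the value of Hoxd8, so the gap between Hoxc and Hoxd nearly closed. Inside each cluster the posterior genes held the largest share, 63.5% in Hoxa, 49.8% in Hoxb, 60.9% in Hoxc and 66.2% in Hoxd. In Hoxb the central genes came close at 47.3%, of which Hoxb4 and Hoxb7 held the most. Anterior genes held 2.86% of Hoxb and 4.04% of Hoxd, and Hoxc has no anterior gene. The anterior share of Hoxa is not reported here, so these low shares do not describe all clusters.

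In edgeR with low counts filtered out, no single Hox gene was called different between cultures, and neither was any other gene. The test thus says little about Hox genes. Without that filter edgeR called some other genes for each library, but no Hox gene. The quasi-likelihood test of edgeR set each library against the other 3 over 17398 genes, which included 26 Hox genes and left out 13 with too few counts. With an adjusted p under 0.05 as the threshold, 0 of 26 Hox genes and 0% of all genes tested were called in each of the 4 comparisons, and DESeq2 called 0 of the Hox genes and 8, 68, 3 and 3 of all genes in libraries 1 to 4. At an unadjusted p under 0.05, edgeR gave 1 Hox gene for each library. In library 1 this was Hoxc6, with a log2 fold change of -1.32 (edgeR, unadjusted p = 0.0137, adjusted p = 0.723). In library 2 it was Hoxb13 at -1.30, in library 3 Hoxa13 at -0.998, and in library 4 Hoxd11 at -1.26, each lower than in the other libraries. Over all genes edgeR gave 926, 1284, 274 and 269 genes at an unadjusted p under 0.05 for libraries 1 to 4. This test assumes that a lone library varies like the other 3, and takes the spread from those 3.

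With a library left out, 4 of the 12 reduced comparisons gave calls, and the other 8 gave none in any gene. These 4 set 1 library against the pair of libraries 2 and 4 or the pair of libraries 1 and 3, so they show the same grouping of the libraries and are not separate evidence. Without library 3, 2 of 27 Hox genes tested were called in library 1, Hoxc6 and Hoxc10, with log2 fold changes of -1.49 and -1.01 (edgeR, adjusted p = 0.00331 and 0.0216), against 12.4% of all genes tested. Without library 4, 3 of 27 were called in library 2, Hoxc10 (log2 fold change 0.99), Hoxc8 (1.30) and Hoxb13 (-1.52), with adjusted p between 0.0225 and 0.0488 by edgeR, against 14.4% of all genes. Without library 1, 2 of 28 were called in library 3, Hoxc10 (-1.05) and Hoxc8 (-1.31), against 7.35% of all genes, and without library 2, 1 of 29 was called in library 4, Hoxc10 (1.08), against 7.8% of all genes. The share of Hox genes called was below that of all genes in each of the 4, so these calls are no result about Hox genes in particular.

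Libraries 2 and 4 were the highest pair by CPM for 14 of the 39 Hox genes, a count made after seeing the data. Among the 26 tested the count was 12, and over all genes tested the share was 22.7%. By cluster these were 5 of 9 Hoxc genes (Hoxc5, Hoxc6, Hoxc8, Hoxc9 and Hoxc10), 5 of 11 Hoxa genes (Hoxa7, Hoxa9, Hoxa10, Hoxa11 and Hoxa13), 2 of 10 Hoxb genes and 2 of 9 Hoxd genes. Markers of other cells moved with the same libraries. In libraries 1 to 4 the 10 extraembryonic endoderm markers, all expressed, summed to 2812, 9090, 3422 and 6949 TPM, the 10 mesenchyme markers, also all expressed, to 1705, 3578, 1506 and 2530 TPM, and the hepatocyte markers to 13.4, 90.5, 17.5 and 38.4 TPM. The 10 pluripotency markers, all expressed, went the other way at 7933, 4380, 7208 and 5349 TPM. Their part in the Hox levels was not tested.

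**Figure D4:**
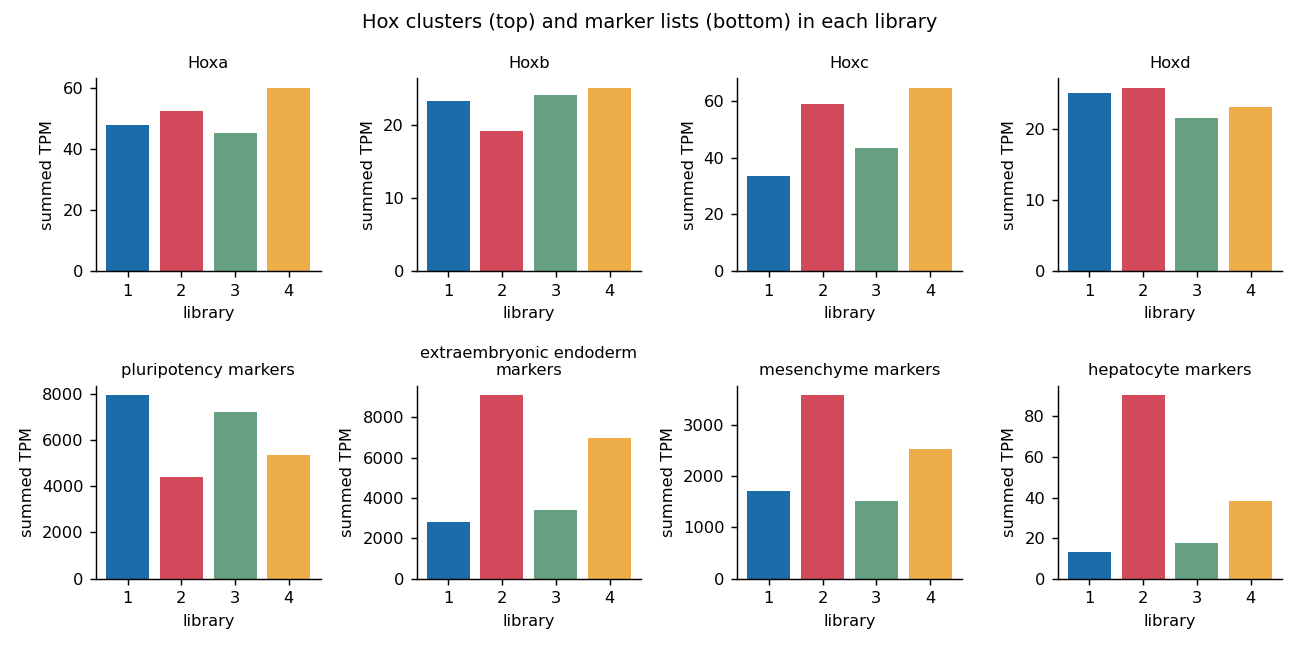
Summed TPM in each library for the 4 Hox clusters (top) and for 4 lists of 10 marker genes (bottom), with a scale of its own in each panel that starts at 0. Hoxa, Hoxc, extraembryonic endoderm, mesenchyme and hepatocyte markers are highest in libraries 2 and 4, and pluripotency markers are highest in libraries 1 and 3.

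The spread of Hox genes between cultures lay close to that of other genes at their level. The median biological coefficient of variation (edgeR's estimate of the spread between cultures beyond counting) was 0.271 over the 26 tested Hox genes, against 0.270 over the 5927 genes in the same range of mean level (0.661 to 8.90 CPM) and 0.185 over all genes tested. The median SD of log2(CPM + 1) was 0.258 for the Hox genes, 0.244 for genes in that range and 0.176 for all genes tested. Among the Hox genes the coefficient ran from 0.199 (Hoxb9) to 0.387 (Hoxb8).

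The noncoding transcripts of the clusters were mostly low. Of 17 measured, 4 were expressed (Halr1, Hoxa11os, Hotairm1 and the Mir196a-1 row), 8 lay between and 5 were not detected, with a median of 0.258 TPM. Halr1, also called Haunt, a long noncoding RNA that is known to act on the Hoxa cluster in mouse embryonic stem cells, was far above every Hox gene at 120.3, 119.6, 205.7 and 107.3 TPM. Library 3 was the highest for Halr1. Hoxa11os, the antisense partner of Hoxa11, stood at 2.02 ± 0.144 TPM, and Hotairm1, a transcript of the Hoxa cluster named for myeloid cells, at 1.79 ± 0.562 TPM. Hoxb5os had a mean of 1.96 TPM but 16, 2, 18 and 15 counts, and stood under 1 TPM in library 2. The other long transcripts were low, at 0.568 TPM for Hoxaas3, 0.476 TPM for Hoxd3os1, 0.258 TPM for Hoxaas2, 0.198 TPM for Hoxb3os, 0.0927 TPM for Hottip and 0.0850 TPM for Haglr. Hotair, which lies in the Hoxc cluster and is known in human cells to act on Hoxd, had 1, 3, 0 and 0 counts.

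The clusters also hold microRNA genes of 2 main families, miR-196 (beside group 9 genes) and miR-10 (beside group 4 genes). They are shown because members of a family share a seed, the bases 2 to 8 that pair with targets, because the miR-196 rows differed in their counts, and because Hoxb8 is a known target of miR-196 in mouse embryos. The mature sequences below are from RefSeq, 5′ to 3′, with the seed in capitals.
miR-196a-5p: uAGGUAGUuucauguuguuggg
miR-196b-5p: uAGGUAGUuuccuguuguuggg
miR-10a-5p: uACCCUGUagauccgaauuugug
miR-10b-5p: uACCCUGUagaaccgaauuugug

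The same mature miR-196a is made from Mir196a-1 on chromosome 11 and Mir196a-2 on chromosome 15. Mature microRNAs carry no poly(A) tail and are short, so they were not measured, and a count in such a row comes from longer polyadenylated RNA over the locus. The Mir196a-1 row had 39, 41, 39 and 32 counts in libraries 1 to 4. In contrast, the rows of Mir196a-2, Mir196b, Mir10a and Mir10b had 0 counts in every library, which allows up to 3 counts each. Mir615, in the Hoxc cluster, had 2, 0, 0 and 4 counts. The Mir196b locus lies within the exons of Hoxa9 in the annotation used, and how reads shared by such rows were counted is not given. Hoxb8, the miR-196 target, stood at 1.06, 0.448, 0.722 and 1.56 TPM.

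Genes at the borders of the clusters do not code for Hox proteins and differed in level by orders of magnitude. At the Hoxa cluster, Skap2 and Hibadh stood at 19.2 and 26.1 TPM and the homeobox gene Evx1 at 0.254 TPM. At Hoxb, Calcoco2, Ttll6 and Skap1 stood at 43.1, 2.77 and 0.148 TPM. At Hoxc, Hnrnpa1, Cbx5 and Smug1 stood at 2238, 244.9 and 26.5 TPM. At Hoxd, Mtx2 and Lnpk stood at 47.2 and 16.4 TPM, and Evx2 had 0, 2, 4 and 0 counts. Evx1 and Evx2 lie next to the group 13 genes Hoxa13 and Hoxd13, which were expressed, while neither Evx gene was.

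Among proteins that work with or upstream of Hox proteins, the share expressed differed between lists. Pbx, Meis and Pknox proteins bind DNA together with Hox proteins, and all 9 measured were expressed, from Pknox2 at 1.86 TPM to Pknox1 at 17.4 TPM and Pbx2 at 77.1 TPM. The Cdx genes activate trunk and tail Hox genes, and with the ParaHox genes Gsx1, Gsx2 and Pdx1 2 of 6 were expressed. These were Cdx1 (4.01 ± 1.63 TPM) and Cdx2 (2.50 ± 1.02 TPM), while Gsx2 was the lowest at 0.318 TPM. Of 11 further upstream regulators 7 were expressed, led by Lin28a (140.4 TPM) and Sall4 (97.8 TPM), with the mesoderm gene T the lowest at 0.589 TPM. Gdf11, the ligand that opens posterior Hox genes in the trunk-to-tail transition, was expressed at 16.7, 22.4, 18.2 and 30.2 TPM.

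Retinoic acid is a known inducer of anterior Hox genes, and 15 of 16 genes of its pathway were expressed. The receptor gene Rarg (132.9 ± 19.2 TPM) and the binding protein gene Crabp1 (87.4 ± 14.1 TPM) were the highest and the receptor gene Rxrg the lowest, at 0.246 TPM. Cyp26a1, which breaks retinoic acid down, was measured at 7.46, 30.7, 15.6 and 19.6 TPM. Chromatin regulators of the clusters were all expressed. Polycomb complex PRC2, which places the repressive mark on histone H3 at Hox clusters, had 8 of 8 genes expressed, with Suz12 at 339.8 TPM and Eed at 224.2 TPM highest and Phf19 lowest at 14.3 TPM. PRC1 had 14 of 14, from Cbx8 at 3.78 TPM to Rnf2 at 133.0 TPM and Phc1 at 265.4 TPM. The activating MLL and UTX group had 9 of 9, with Wdr5 at 247.6 TPM and Ash2l at 182.1 TPM highest and Kmt2a, the gene of MLL1, lowest at 17.2 TPM.

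**Figure D5:**
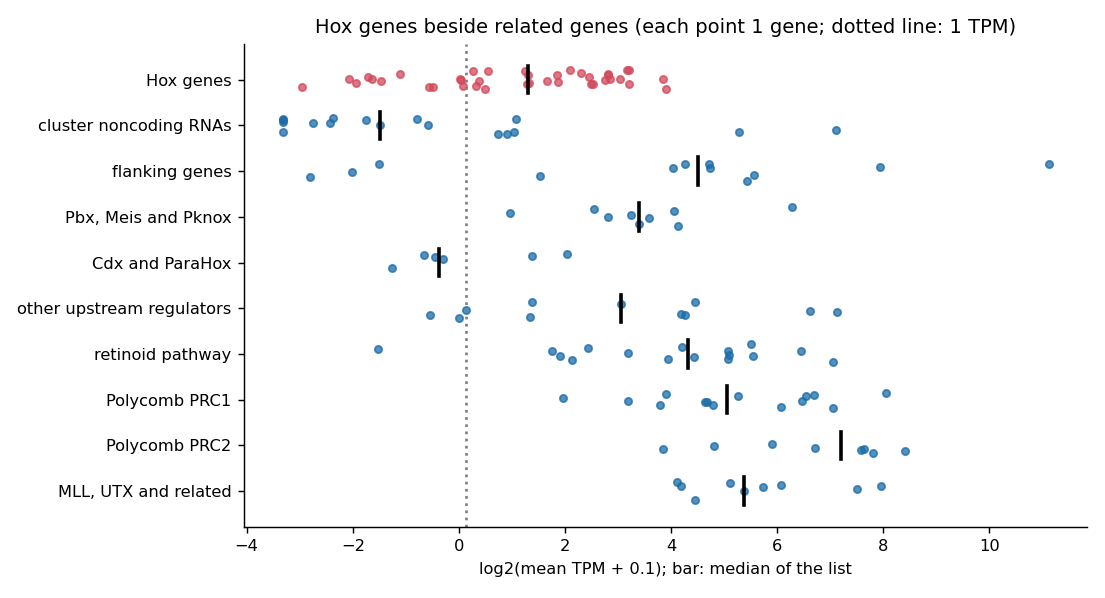
Mean level over 4 libraries of each Hox gene (top row) and of the genes of 9 related lists, as log2(mean TPM + 0.1); each point is a gene, black bars are medians and the dotted line marks 1 TPM. The Hox median lies above those of the cluster noncoding RNAs and of the Cdx and ParaHox genes, and under that of every other list shown.

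Cell types known for strong Hox expression were checked by their markers. Of 10 trunk progenitor and mesoderm markers 3 were expressed, Tcf15 at 71.8 TPM, Osr1 at 6.45 TPM and Foxc2 at 1.81 TPM, and the presomitic gene Msgn1 had 0, 2, 0 and 0 counts. Of 10 hindbrain and spinal neural markers 4 were expressed, with Elavl3 at 5.36 TPM and Sox1 at 3.17 TPM highest, and Olig2 had 4, 0, 0 and 0 counts. Of 10 haematopoietic markers 4 were expressed, led by Kit at 57.4 TPM and Cd34 at 12.9 TPM, which other cell types also express, and the globin gene Hbb-bs had 0 counts in every library. The mesenchyme list was expressed in full, with Col1a1 at 1172 TPM, Col3a1 at 273.0 TPM and Twist1, the lowest, at 27.1 TPM. The pluripotency and extraembryonic endoderm lists were also expressed in full. Their mean sums were higher, at 6217 and 5568 TPM, against 2330 TPM for mesenchyme. Which cells of the cultures carried the Hox transcripts was not tested.

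Promoter sequence was looked at as a feature that the choice of members did not use. RefSeq windows on GRCm38.p6 matched 22 of the 39 Hox genes, with 24 windows, and were read over the 250 bases before the start of transcription. Hox windows held a median of 12.5 CG dinucleotides, against 6 over all 32851 windows, and their ratio of observed to expected CG was 0.721 against 0.374. The 13 windows of expressed Hox genes had a median ratio of 0.755 and the 11 windows of the others 0.687, and Spearman's rho between CG number and mean TPM was 0.17 over the windows. The ranges of CG number in these groups of windows overlapped. Shown are the windows of Hoxa11, the highest member, of Hoxa13, the richest in CG, and of Hoxb1 and Hoxd3, the lowest members, each 5′ to 3′ on the gene's strand with CG in capitals.
Hoxa11 (chr6:52245811-52246060, minus strand, GRCm38.p6): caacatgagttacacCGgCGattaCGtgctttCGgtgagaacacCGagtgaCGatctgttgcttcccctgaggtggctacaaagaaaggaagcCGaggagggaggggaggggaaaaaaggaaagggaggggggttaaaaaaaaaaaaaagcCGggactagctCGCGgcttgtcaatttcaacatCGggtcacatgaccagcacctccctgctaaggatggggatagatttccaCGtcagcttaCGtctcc
Hoxa13 (chr6:52260881-52261130, minus strand, GRCm38.p6): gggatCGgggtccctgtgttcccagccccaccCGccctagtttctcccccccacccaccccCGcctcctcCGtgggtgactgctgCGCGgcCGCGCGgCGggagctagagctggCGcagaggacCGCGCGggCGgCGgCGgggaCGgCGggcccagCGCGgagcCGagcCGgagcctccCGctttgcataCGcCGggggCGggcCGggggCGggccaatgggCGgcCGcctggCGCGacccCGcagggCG
Hoxb1 (chr11:96365508-96365757, plus strand, GRCm38.p6): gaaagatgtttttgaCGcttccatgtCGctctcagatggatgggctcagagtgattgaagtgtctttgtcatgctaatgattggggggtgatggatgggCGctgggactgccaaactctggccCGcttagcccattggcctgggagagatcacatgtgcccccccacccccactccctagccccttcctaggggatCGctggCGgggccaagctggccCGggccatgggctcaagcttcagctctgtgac
Hoxd3 (chr2:74711743-74711992, plus strand, GRCm38.p6): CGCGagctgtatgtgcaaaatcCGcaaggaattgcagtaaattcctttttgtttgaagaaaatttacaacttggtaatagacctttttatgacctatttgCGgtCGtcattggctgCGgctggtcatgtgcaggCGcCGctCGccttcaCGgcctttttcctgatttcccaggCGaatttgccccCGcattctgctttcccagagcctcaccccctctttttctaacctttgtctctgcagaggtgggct

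These windows held 13 CG for Hoxa11, 35 for Hoxa13, 7 for Hoxb1 and 12 for Hoxd3. Hoxd3, with 5 counts over all libraries, thus had nearly as many CG as Hoxa11. The letters TTTATG, a core bound by Cdx proteins, were found on either strand in 5 of 24 Hox windows (20.8%) and in 10.8% of all windows, and the Hoxd3 window was among the 5. The letters TGATNNAT, bound by Hox and Pbx proteins together, were in 4 of 24 Hox windows (16.7%) and 7.68% of all windows, and the Hoxb1 window held them. A TATA box (TATAAA) was in 4 of 24 Hox windows (16.7%) and 12.4% of all windows. These motifs can overlap, and a match describes letters, not binding.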

How the data were processed

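The authors deposited raw, unnormalized whole-number counts in 1 table for each of 4 libraries that form a single group. The submitters' processing notes name STAR, featureCounts and the build GRCm39 (mm39). Tool versions, annotation release and counting options: not given in the sources used here. Per the labels, the 4 cultures were generated independently, so p-values measure the spread between cultures. Even numbers made up 60.0% to 62.6% of the deposited counts from 1 to 8, as happens when each read of a pair is counted; if so, 1 fragment can give more than 1 count and a count of 0 allows up to 6 counts (0.149 to 0.203 CPM).

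Gene types and lengths (union of exons) came from a GENCODE annotation on GRCm38, not the authors' build, which matched 48849 rows and all 39 Hox genes, and 19969 matched rows were protein-coding. TPM and CPM were computed from the deposited counts. Levels were averaged over libraries, with figures on the log2(TPM + 0.1) scale, where differences between low genes are compressed. Each library was compared with the other 3 in edgeR (4.0.16), with DESeq2 (1.42.0) as an alternative. The edgeR settings were TMM, filterByExpr, the quasi-likelihood test and Benjamini-Hochberg at 0.05. The edgeR test was also run on simulated data, with independent libraries that lacked the grouping seen here. That run thus does not show how the test performs on these libraries. The common biological coefficient of variation was 0.205.

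Exons of 16 Hox genes overlap another annotated gene, 7 of them over more than 20% of their length (Hoxa3, Hoxa7, Hoxa11, Hoxb2, Hoxb3, Hoxd3 and Hoxd4). Levels per library are given for every expressed Hox gene, for each related list the highest 2 and the lowest member, and every cluster noncoding RNA and bordering gene with a value (Prac1 and Haglros had none); other names were chosen after their values were seen, and results of some genes are not reported here. The Hox genes and all lists were chosen with earlier results of these data known. Promoter and microRNA sequences are from RefSeq on GRCm38.p6. Software was R 4.3.3 and Python 3.11.15 with matplotlib 3.10.9, SciPy 1.17.1, pandas 2.3.3 and numpy 2.4.6.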

Additional observations from a re-analysis of the deposited data

Results flagged for a closer look

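In 6 of 72 values checked (Hox genes, noncoding RNAs and sums over lists or clusters), 1 library lay so far from the other 3 that its gap to the nearest, as a share of the whole range, passed Dixon's 95% critical value for 4 samples. Chance flags about 1 in 20 such groups. Library 2 was low for Hoxa2 (0.443 TPM, gap share 0.929) and for Hoxd1 (0.317 TPM, gap share 0.937), both anterior genes. Library 3 was high for Hoxa3 (0.801 TPM, gap share 0.872), for the long noncoding RNA Halr1 (205.7 TPM, gap share 0.868), for the Hoxa antisense transcript Hoxaas3 (1.10 TPM, gap share 0.905) and for the summed cluster noncoding RNAs (263.0 TPM, gap share 0.851), a sum that is mostly Halr1. Hoxaas3 shares exonic sequence with Hoxa3, and reads of the pair cannot be told apart without strand. Hoxa2 had 24, 8, 18 and 25 counts and Hoxd1 22, 6, 16 and 22 counts in libraries 1 to 4, so both rest on few counts.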

How the results depend on the processing

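Of 101 alternative values, 86 kept their size within the spread between libraries or within 1.5 times a count. The number of expressed Hox genes was 19 to 27 under other thresholds and 22 to 25 with a library left out. With 6 counts or fewer as the limit, 1 Hox gene (Hoxd3) was not detected, and with a library left out 0 to 1. The share of Hoxa in Hox TPM was 37.4% by CPM and 32.1% with principal transcript lengths, which gave 12.1% for Hoxb and 27.3% for Hoxd. Those lengths put central genes at 42.3% and posterior genes at 51.9%. Without the highest gene of each cluster, anterior genes held 10.2%, central genes 38.9% and posterior genes 50.9%, so the order of the position groups was kept. Both of these alternatives were chosen after seeing the data. Leaving out a library gave 0 to 2 Hox calls for library 1, 0 to 3 for library 2, 0 to 2 for library 3 and 0 to 1 for library 4; the cause was not tested. No paired analysis was possible because the series has a single group. Depth limits the lowest members: 13 Hox genes had too few counts to test, and without strand or a control group neither antisense reads nor any effect of A-HIC can be separated out.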
